A study of Danio rerio with 4 samples.

Results

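The 5 genes of the zebrafish Rel and NF-κB family, nfkb1, nfkb2, rela, relb and rel, were followed in the transcriptome of β-cells that make Il-1β. They were taken from the table by gene symbol and are 5 of its 22044 genes. β-cells were collected from Tg(ins:il1b); Tg(ins:mKO) fish and from WT fish that carried Tg(ins:mKO) alone (Tg(ins:nlsRenilla-mKO2) in the methods), all 3 months old, with 2 mRNA libraries for each genotype. In Tg(ins:il1b) the insulin promoter drives a truncated, presumably mature zebrafish Il-1β with a FLAG tag, an eye marker (cryaa:mCherry) identifies carriers, and the line goes back to 1 selected founder. The mKO reporter, which is also under the insulin promoter, is shared by both genotypes and was used to sort the cells by FACS from dissected primary islets. Whether both libraries of a genotype go back to separate fish or pools is stated in neither the labels nor the methods. The p-values thus reflect the spread among these libraries alone, which may be technical.

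Rel and NF-κB proteins bind DNA as dimers through a shared Rel homology domain. The genes nfkb1 and nfkb2 encode precursors whose processing releases the DNA-binding subunits, while rela, relb and rel encode subunits that carry a transactivation domain. IκB proteins hold the dimers in the cytoplasm. In the canonical pathway, receptors for IL-1, TNF and microbial products activate the IκB kinase complex and IκB is degraded. In the non-canonical pathway, the kinase NIK drives processing of the nfkb2 precursor, which frees dimers with Relb. In mammals several family members and inhibitors are themselves NF-κB target genes, and the canonical pathway is a main route by which IL-1β acts on β-cells.

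The whole reads in genes numbered 28524617 to 28702122 in the Tg(ins:il1b) libraries and 35073715 to 35637508 in the WT libraries. The targeted gene il1b had 587911 and 423851 normalised counts in Tg(ins:il1b), against 11 and 1.9 in WT, and reads of the transgene and of the endogenous gene were not separated. Of 13 β-cell markers, 12 passed the filter on low values and 2 fell by limma and edgeR (pcsk2 and kcnj11). DESeq2 called 4 as lower, with abcc8 and ins added (ins at a log2 fold change of -1.18, adjusted p = 0.316 from limma and 0.00119 from DESeq2), and 6 were lower and 1 higher with an unadjusted limma p under 0.05. The exception under the filter was slc30a8, at 3 and 8.5 in Tg(ins:il1b) and 1.8 and 2.9 in WT. Hormone genes of other endocrine cells were present at high levels as well: gcga had 122372 and 383327 normalised counts in Tg(ins:il1b), against 7690 and 3665 in WT, and rose with ghrl among 8 such markers by limma and edgeR, while DESeq2 called 5 as higher and 6 had an unadjusted limma p under 0.05. In bulk samples, fewer cells of a type and less RNA per cell cannot be told apart. Of the acinar (15), duct (5) and endothelial and mesenchymal (6) markers tested, 0 were called by limma or edgeR, DESeq2 called 1 duct marker, and 2 duct markers had an unadjusted limma p under 0.05. Over all genes tested limma called 1.63%, edgeR 1.28% and DESeq2 6.59%. At an unadjusted limma p under 0.05, 7.95% of all genes were higher and 6.45% lower.

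Of the subunit genes, nfkb2 and relb rose in the il1b-expressing cells, nfkb1 and rel lay higher in both Tg(ins:il1b) libraries but did not pass the test, and rela differed by less than its spread. The threshold was an adjusted p of 0.05 from limma fitted to 18504 genes, on the log2(value + 1) scale. At this threshold 2 of 5 members rose and 0 fell, while 1.63% of all genes tested were called (1.1% as higher and 0.53% as lower). The same 2 members were called by the count tests on whole reads, where edgeR called 1.28% of all genes (0.903% higher and 0.373% lower) and DESeq2 6.59% (4.19% higher and 2.4% lower). All 5 members passed the filter on low values. The 4 members other than rela had both Tg(ins:il1b) libraries above both WT libraries, which was so for 22.3% of all genes. At an unadjusted p under 0.05, 4 of 5 were higher, against 7.95% of all genes, and 0 were lower, against 6.45%. The median log2 fold change of the members was 1.38, and that of all genes was -0.01.

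**Figure D1:**
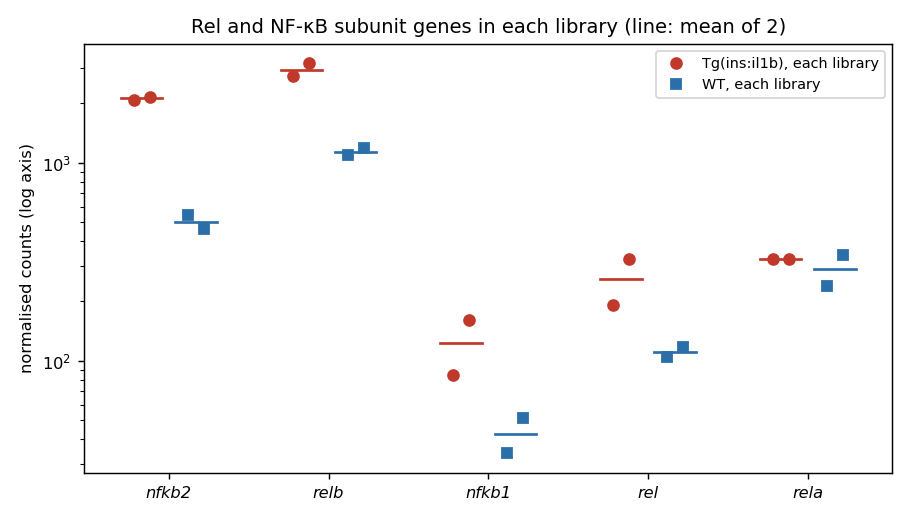
Normalised counts (log axis) of the 5 subunit genes in each library. Red circles are the Tg(ins:il1b) libraries, blue squares the WT libraries, and lines the mean of the 2 libraries of a genotype. The libraries of the genotypes are apart for nfkb2, relb, nfkb1 and rel, and overlap for rela, where WT replicate 2 (341.5) lies above both Tg(ins:il1b) libraries.

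Among the precursor genes, nfkb2, which encodes p100 and its product p52, had the largest estimated change of the family. It lies on chromosome 13 (GRCz10, 22586916 to 22605097, plus strand; ENSDARG00000038687). It had 2084 and 2139.4 normalised counts in Tg(ins:il1b), against 541.9 and 464 in WT. Each Tg(ins:il1b) library was thus several times above the higher WT library, and the libraries of a genotype were close to each other. The mean was 2112 ± 39.2 in Tg(ins:il1b) and 503 ± 55.1 in WT (SD, n = 2 each), a ratio of means of 4.20. On the log2 scale this was a change of 2.07 ± 0.22 (standard error), with a 95% interval of 1.54 to 2.61 and a limma adjusted p of 0.0183. The count tests on whole reads (2062 and 2002 in Tg(ins:il1b), 590 and 481 in WT) gave adjusted p = 0.0207 with edgeR and 1.29e-11 with DESeq2. The limma call was lost without WT replicate 1 (2.18, adjusted p = 0.110) and without WT replicate 2 (1.96, adjusted p = 0.129), when a single WT library was left and 25 and 19 genes were called in all, and edgeR lost it in the same cases (adjusted p = 0.146 and 0.165). DESeq2 kept it whichever library was left out (adjusted p of at most 5.16e-04).

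The other precursor gene, nfkb1, encodes p105 and its product p50 and lies on chromosome 14 (50609994 to 50657925, minus strand; ENSDARG00000105261). It was the least abundant member by counts, with 84.9 and 161.4 normalised counts in Tg(ins:il1b), against 34 and 51.1 in WT. Both Tg(ins:il1b) libraries lay above both WT libraries, but replicate 2 of Tg(ins:il1b) was 1.90 times replicate 1. The mean was 123 ± 54.1 in Tg(ins:il1b) and 42.5 ± 12.1 in WT (SD, n = 2 each). The log2 fold change of 1.47 ± 0.54 (standard error) had a 95% interval of 0.16 to 2.77 and a limma adjusted p of 0.287, and it did not pass with edgeR (adjusted p = 0.297) or DESeq2 (adjusted p = 0.180). The reads behind these values were few, 84 and 151 in Tg(ins:il1b) and 37 and 53 in WT.

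Of the genes for subunits with a transactivation domain, relb rose. It encodes the partner of p52 in the non-canonical pathway and lies on chromosome 15 (17164390 to 17189195, plus strand; ENSDARG00000086173). It was the most abundant member in every library, with 2737.8 and 3170.6 normalised counts in Tg(ins:il1b), against 1090.2 and 1179.9 in WT. The genotypes were well apart relative to the gap between libraries of a genotype. The mean was 2954 ± 306 in Tg(ins:il1b) and 1135 ± 63.4 in WT (SD, n = 2 each), a ratio of means of 2.60. The change of 1.38 ± 0.21 (standard error) on the log2 scale had a 95% interval of 0.88 to 1.87, and the adjusted p was 0.0390 with limma, 0.0454 with edgeR and 1.4e-05 with DESeq2. This call was closer to the threshold than that of nfkb2: limma lost it without Tg(ins:il1b) replicate 2 (1.27, adjusted p = 0.0823), without WT replicate 1 (1.32, adjusted p = 0.208) and without WT replicate 2 (1.43, adjusted p = 0.203), and edgeR lost it in the same cases (adjusted p = 0.0968, 0.247 and 0.249). DESeq2 kept it whichever library was left out (adjusted p of at most 0.0434).

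The gene rel encodes c-Rel, known in mammals for its role in lymphocytes, and lies on the same chromosome as nfkb2 (chromosome 13, 25665061 to 25689375, minus strand; ENSDARG00000055276). It had 192 and 324.9 normalised counts in Tg(ins:il1b), against 103.8 and 116.7 in WT. The WT libraries were close together, and replicate 2 of Tg(ins:il1b) was 1.69 times replicate 1. Its log2 fold change was 1.18 ± 0.40 (standard error), with a 95% interval of 0.21 to 2.14, and none of the 3 tests called it (adjusted p = 0.250 with limma, 0.244 with edgeR and 0.120 with DESeq2). Between nfkb2 and rel lie 3.06 Mb with 82 other genes of the table.

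The gene rela encodes p65, the transactivating partner of p50 in the best known canonical dimer, and lies on chromosome 7 (626603 to 667906, minus strand; ENSDARG00000098696). It had 327.4 and 328.1 normalised counts in Tg(ins:il1b), against 238.8 and 341.5 in WT. The WT libraries enclosed both Tg(ins:il1b) libraries. Its log2 fold change was 0.20 ± 0.32 (standard error; limma adjusted p = 0.854). The 95% interval ran from -0.56 to 0.96, a fold of 0.677 to 1.94, so a fall or a rise within these bounds cannot be told from no change. Without WT replicate 1 the value was -0.06. The gene zgc:63470 overlaps rela by the end of its span (620140 to 626604) and si:cabz01078388.1 lies inside it (656557 to 659247), both on the opposite strand, and whether the counting used strand is not given in the sources used here. They had at most 118.2 and 24.6 normalised counts in any library. The other members have no overlapping gene in the table.

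**Figure D2:**
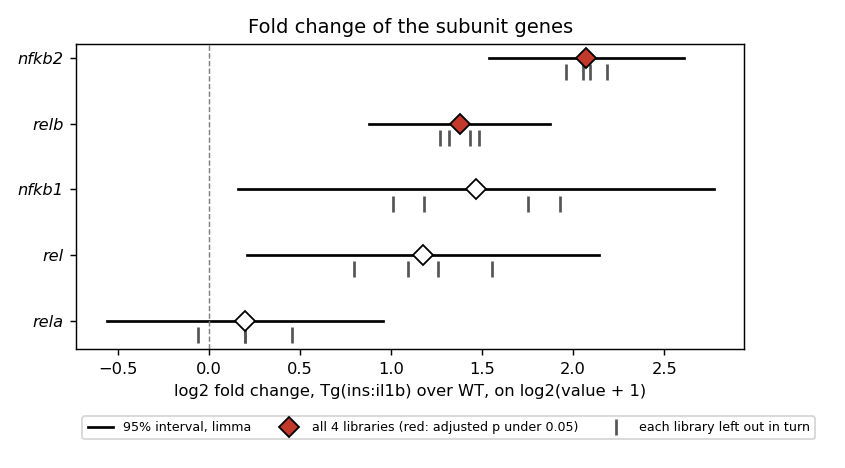
Log2 fold change of each subunit gene, Tg(ins:il1b) over WT, from limma. Diamonds are the estimates from all 4 libraries (red where the adjusted p is under 0.05), lines their 95% intervals, and ticks the estimates with each library left out in turn. The estimates for nfkb2 stay between 1.96 and 2.18 and those for relb between 1.27 and 1.48, while those for rela lie on both sides of 0.

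Levels of different genes were compared per kb of the gene length given in the table, since long transcripts collect more reads; the sources used here do not say which exons that length covers. On this scale relb was the highest member in both genotypes, at 649 per kb in Tg(ins:il1b) and 249 in WT (means of 2 libraries). It was followed by nfkb2, at 509 per kb in Tg(ins:il1b) and 121 in WT, and by rel, at 121 per kb in Tg(ins:il1b) and 51.6 in WT. The last places differed between genotypes: nfkb1 (61.8) stood above rela (42.3) in Tg(ins:il1b), whereas rela (37.4) stood above nfkb1 (21.3) in WT. These places rest on the given lengths, 7753 bases for rela, 2137 for rel and 1993 for nfkb1. By counts without division by length, rela lay above rel and nfkb1 in every library. No neighbouring pair in either order had overlapping libraries, but in Tg(ins:il1b) replicate 1 nfkb1 (42.6) and rela (42.2) were nearly equal. Among the 18504 genes tested, relb lay at percentiles 85.7 and 87.6 in Tg(ins:il1b) and 71.8 and 73.7 in WT by counts per kb. Likewise nfkb2 lay at percentiles 83.5 and 84.0 in Tg(ins:il1b) and 60.2 and 56.8 in WT, whereas rela stayed between percentiles 31.5 and 38.1 in every library.

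The 5 genes together had 5426 and 6124 normalised counts in Tg(ins:il1b), against 2009 and 2153 in WT, a ratio of means of 2.78. The make-up of this sum also differed. The genes relb and nfkb2 together held 88.9% and 86.7% of it in Tg(ins:il1b), against 81.3% and 76.3% in WT. The share of nfkb2 was 38.4% and 34.9% in Tg(ins:il1b), against 27.0% and 21.5% in WT. The share of rela was 6.03% and 5.36% in Tg(ins:il1b), against 11.9% and 15.9% in WT, while its counts overlapped between genotypes. The share of relb was a little lower, at 50.5% and 51.8% in Tg(ins:il1b) and 54.3% and 54.8% in WT. Shares within a library add up to a whole, so a gain of one member lowers the others.

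**Figure D3:**
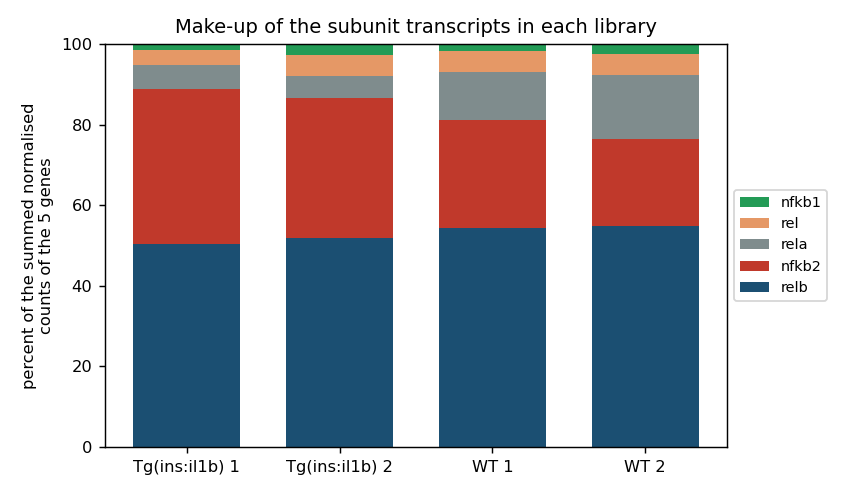
Share of each subunit gene in the summed normalised counts of the 5 genes, in percent, for each library. The bars of the Tg(ins:il1b) libraries hold more nfkb2 (38.4% and 34.9%) than those of the WT libraries (27.0% and 21.5%) and less rela (6.03% and 5.36% against 11.9% and 15.9%).

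Ratios between members within a library do not depend on how libraries were scaled. Of the 10 pairs of members, 7 had ratios that did not overlap between genotypes, beside 46.8% of all pairs of tested genes (either direction). The pairs share members, and 4 of the 7 have rela in them. The ratio of nfkb2 to rela was 6.37 and 6.52 in Tg(ins:il1b), against 2.27 and 1.36 in WT, a difference of 1.87 on the log2 scale (standard error 0.37). The ratio of relb to rela was 8.36 and 9.66 in Tg(ins:il1b), against 4.57 and 3.46 in WT, a difference of 1.18 (standard error 0.23). For nfkb2 over relb, the most abundant members, it was 0.761 and 0.675 in Tg(ins:il1b), against 0.497 and 0.393 in WT, a difference of 0.70 (standard error 0.19). So nfkb2 stood higher in Tg(ins:il1b) relative to relb as well as to rela. Relative to nfkb1 it was not apart between genotypes. That ratio was 24.5 and 13.3 in Tg(ins:il1b), against 15.9 and 9.08 in WT, a log2 difference of 0.60 (standard error 0.59). The minor members also stood higher relative to rela: nfkb1 over rela was 0.259 and 0.492 in Tg(ins:il1b), against 0.142 and 0.150 in WT, and rel over rela was 0.586 and 0.990 in Tg(ins:il1b), against 0.435 and 0.342 in WT. Relative to relb, neither rel nor nfkb1 was apart between genotypes, with log2 differences of relb over rel of 0.20 (standard error 0.27) and of relb over nfkb1 of -0.09 (standard error 0.42). With 2 libraries against 2, a two-sided exact permutation test cannot go below p = 0.333, which is what each of the 7 pairs gave (0.476 after Benjamini-Hochberg adjustment over the 10 pairs), so none of these differences can pass a threshold of 0.05.

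**Figure D4:**
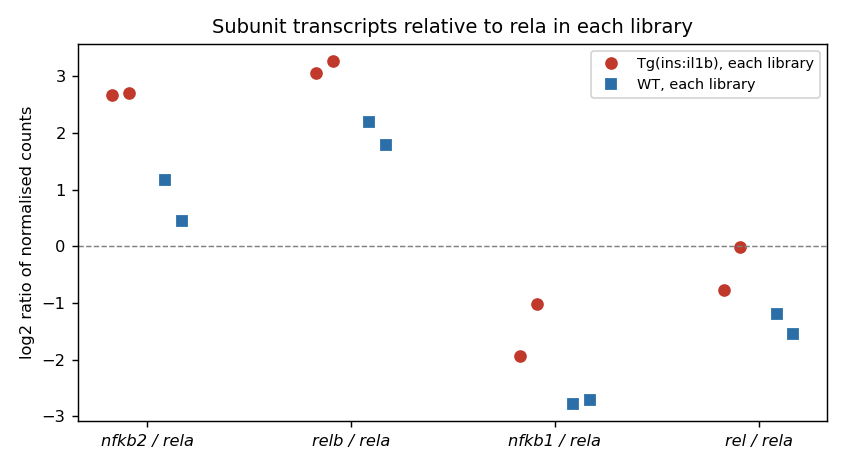
Log2 ratio of each subunit gene to rela in each library, from normalised counts. Red circles are the Tg(ins:il1b) libraries and blue squares the WT libraries, and the dashed line marks equal counts. For each of the 4 genes both Tg(ins:il1b) libraries lie above both WT libraries.

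Leukocytes also express Rel and NF-κB genes, so their markers were set beside the members. Of 35 leukocyte markers 29 were matched and 18 passed the filter. None of these 18 was called by limma or edgeR (0 each), beside 1.63% and 1.28% of all genes. DESeq2 called 3 of them as higher, beside 4.19% of all genes. An unadjusted limma p under 0.05 with a higher level was seen for 5, beside 7.95% of all genes. Both Tg(ins:il1b) libraries lay above both WT libraries for 11 of the 18, beside 22.3% of all genes. They lay below both for 1, beside 22.1% of all genes. The 29 summed to 19863 and 55929 normalised counts in Tg(ins:il1b), against 4750 and 17632 in WT. The median log2 fold change of the 18 tested was 1.58, and 13 of the 29 were at 0 in at least 1 library. Without cd74a and cd74b, which dominate the sum, the other 27 summed to 1488.5 and 2524 in Tg(ins:il1b), against 1085 and 1124 in WT. Without cyba and rac2 as well, the next most abundant, the other 25 summed to 509 and 1493 in Tg(ins:il1b), against 236 and 292.5 in WT. Replicate 2 of Tg(ins:il1b) was higher than replicate 1 in each of these sums, 2.91 times for cd74a and cd74b together, 1.70 times for the 27 and 2.93 times for the 25. Between the same libraries the ratio was 1.90 for nfkb1 and 1.69 for rel, and 1.16 for relb, 1.03 for nfkb2 and 1.00 for rela. Markers of δ-cells, which make somatostatin, were also higher in replicate 2 of Tg(ins:il1b). There sst2 had 148.6 and 11911 normalised counts and hhex 36.4 and 511.9 in Tg(ins:il1b), against 144.2 and 6.8 (sst2) and 21.1 and 2.9 (hhex) in WT. The somatostatin gene sst1.1 had 45219 and 1.08e+06 in Tg(ins:il1b), against 92133 and 2059 in WT. For sst1.2 the values were 1824 and 52990 in Tg(ins:il1b), against 2917 and 28 in WT. In both of these, WT replicate 1 lay above Tg(ins:il1b) replicate 1. Single leukocyte markers differed within replicate 1 of Tg(ins:il1b). The pan-leukocyte gene lcp1 and the macrophage gene mpeg1.1 were at 0 there and in WT replicate 1. In that Tg(ins:il1b) library mfap4 had 22.2, cybb 20.2 and ncf1 79.8 normalised counts. The WT values were 1.8 and 0 for mfap4, 0.9 and 0 for cybb, and 51.4 and 62.7 for ncf1. The pan-leukocyte gene ptprc had 33.4 and 41.7 in Tg(ins:il1b), against 6.4 and 6.8 in WT, and the neutrophil gene npsn had 84.9 and 68.4 in Tg(ins:il1b), against 2.8 and 0 in WT. Without Tg(ins:il1b) replicate 2 the log2 fold change of nfkb2 was 2.05 (limma adjusted p = 0.0281) and that of relb was 1.27 (limma adjusted p = 0.0823). The part of leukocyte RNA or of RNA from other endocrine cells in the values of the members was not tested.

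Most of the tested genes of the IκB family rose by limma. Of 7 symbols of the IκB family 6 were matched and tested, of which 4 rose and 0 fell by limma (3 rose by edgeR and 5 by DESeq2). Of all genes tested, 1.1% were called as higher by limma, 0.903% by edgeR and 4.19% by DESeq2. The median log2 fold change of the family was 2.31, beside 1.38 for the subunits. The gene nfkbiaa, one of the zebrafish genes for IκBα, had 1530.1 and 3426 normalised counts in Tg(ins:il1b), against 54.2 and 59.8 in WT (log2 fold change 5.31, adjusted p = 0.0106 from limma). For nfkbie (IκBε) the values were 269.8 and 289.6 in Tg(ins:il1b), against 7.3 and 19.3 in WT (4.43, adjusted p = 0.0279 from limma). In each of these the lower Tg(ins:il1b) library was many times the higher WT library. The gene bcl3, an atypical IκB that binds p50 and p52 dimers in the nucleus, had 201.1 and 333.4 in Tg(ins:il1b), against 37.7 and 38.6 in WT (2.73, adjusted p = 0.0482 from limma, and 0.0506 from edgeR). The gene nfkbib (IκBβ) had 5042.1 and 4846.2 in Tg(ins:il1b), against 1799.2 and 1391.2 in WT (1.64, adjusted p = 0.0261 from limma). The second gene for IκBα, nfkbiab, was the most abundant of the family, with 22477 and 46836 in Tg(ins:il1b) and 10215 and 7454 in WT (1.89, adjusted p = 0.0752 from limma and 4.51e-05 from DESeq2). Summed per kb, IκB family transcripts were 12.98 and 22.01 times the subunit transcripts in Tg(ins:il1b), against 14.82 and 10.25 times in WT, so this ratio overlapped between genotypes. Most of the IκB sum was nfkbiab in every library, so the ratio says little about the other genes of the family. In Tg(ins:il1b) nfkbiab held 13815 of 16597 and 28786 of 32749 per kb, and in WT 6278 of 6917 and 4581 of 5079. The count of 4 fell to 2 without Tg(ins:il1b) replicate 2 and to 0 without either WT library.

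No gene of the IκB kinases and their complex passed the test. All 5 genes tested (chuk, ikbkb, ikbkg, ikbke and tbk1) lay between -0.51 and 0.23 on the log2 scale, with a median of 0.05, and 0 were called by limma, edgeR or DESeq2 or had an unadjusted limma p under 0.05. The gene chuk, for the IκB kinase α that phosphorylates p100, had 2736.8 and 1769.6 normalised counts in Tg(ins:il1b), against 2648.8 and 1372.8 in WT (0.21, adjusted p = 0.874 from limma). The gene tbk1 had 2017.3 and 1734.4 in Tg(ins:il1b), against 1303.3 and 1946.9 in WT (0.23, adjusted p = 0.777 from limma). The libraries of the genotypes overlapped for both, and each estimate changed sign when 1 library was left out. Since limma called 1.63% of all genes and DESeq2 6.59%, 0 calls among 5 genes do not set this list apart.

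Of 15 symbols of the non-canonical pathway, 10 were matched and 8 tested, of which 1 rose (limma called 1.1% of all genes as higher, and DESeq2 4.19%). This was traf3, an adaptor of the complex that degrades NIK, with 821.7 and 805.7 normalised counts in Tg(ins:il1b), against 126.7 and 78.1 in WT (log2 fold change 3.02, adjusted p = 0.0201 from limma, and 0.0821 and 0.113 without WT replicates 1 and 2). It was the only member called in this list, apart from the receptor gene cd40, which DESeq2 called as well, at 330.5 and 452 in Tg(ins:il1b) and 110.2 and 104.2 in WT (1.84, adjusted p = 0.0657 from limma). The kinase NIK itself, encoded by map3k14a, had 922.7 and 1020.5 in Tg(ins:il1b), against 809.2 and 414.8 in WT, with both Tg(ins:il1b) libraries higher (0.74, adjusted p = 0.411 from limma). The second NIK gene, map3k14b, was scarce, with 9.1 and 13.9 in Tg(ins:il1b) and 22 and 3.9 in WT, which overlap (0.21, adjusted p = 0.962 from limma). The gene birc2, for the ubiquitin ligase of the same complex, had 1335.1 and 1178.7 in Tg(ins:il1b), against 1354.7 and 1005.3 in WT (0.10, adjusted p = 0.910 from limma). The median of the list was 0.50. At an unadjusted limma p under 0.05, 3 of the 8 were higher, beside 7.95% of all genes, and 0 were lower, beside 6.45%. For 4 of the 8 both Tg(ins:il1b) libraries lay above both WT libraries, beside 22.3% of all genes. The ligand genes cd40lg and tnfsf13b did not pass the filter on low values.

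Upstream of the subunits, 18 of 24 symbols of IL-1, TLR and TNF receptor signalling were matched and tested, 1 rose, 0 fell and the median log2 fold change was -0.01. By edgeR 0 rose and by DESeq2 1. Of all genes tested, 1.1% were called as higher by limma, 0.903% by edgeR and 4.19% by DESeq2, so 1 call among 18 genes does not set this list apart. The gene that rose, irak3, encodes a kinase-like protein that restrains IL-1 and TLR signalling in mammals. It had 663 and 802.5 normalised counts in Tg(ins:il1b), against 144.2 and 220.9 in WT (2.02, adjusted p = 0.0469 from limma and 0.0511 from edgeR, and with limma 0.0962 without Tg(ins:il1b) replicate 2, 0.213 without WT replicate 1 and 0.152 without WT replicate 2). The most abundant genes of the list, ube2na and ube2nb, which encode the ubiquitin-conjugating enzyme of the TRAF6 step, stood at -0.14 and 0.00 (limma adjusted p = 0.837 and 0.998). The receptor genes il1r1 and il1rap were not matched and are not analysed here.

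Among genes of the ubiquitin-editing feedback on NF-κB, 14 of 15 were matched and tested, 2 rose and 0 fell, with a median of 0.13. Of all genes tested, limma called 1.1% as higher and 0.53% as lower. The gene tnip2, for an A20-binding inhibitor of NF-κB, had 739.8 and 1087.9 normalised counts in Tg(ins:il1b), against 25.7 and 17.4 in WT (log2 fold change 5.34, adjusted p = 0.00997 from limma). The gene tnfaip3, for the ubiquitin-editing enzyme A20 itself, had 425.5 and 572.8 in Tg(ins:il1b), against 81.7 and 69.5 in WT (2.70, adjusted p = 0.0258 from limma). In both, the Tg(ins:il1b) libraries were far above WT. Without Tg(ins:il1b) replicate 2, tnfaip3 lost the call (2.48, adjusted p = 0.0575 from limma), and without either WT library both did (tnip2 0.0514 and 0.0662 without WT replicates 1 and 2, tnfaip3 0.134 and 0.161).

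No gene of the machinery that processes p100 and p105 passed the test. Of 10 symbols 7 were matched, 6 were tested and 0 were called by limma, edgeR or DESeq2 (0 also at an unadjusted p under 0.05), with fold changes from -0.22 to 0.05. The ligase components skp1 and rbx1 stood at -0.08 and -0.06 (limma adjusted p = 0.911 and 0.935). Among 12 proteins that bind Rel subunits in mammals 0 were called by any of the 3 tests, and the median was -0.02. A lower level with an unadjusted limma p under 0.05 was seen for 2 of the 12, beside 6.45% of all genes. The most abundant of these, rps3 and hdac1, stood at -0.13 and 0.01. The NFAT genes, whose proteins share the Rel homology fold, had 6 of 8 symbols matched and tested, 0 called by any of the 3 tests (0 at an unadjusted p under 0.05) and a median of -0.38. The most abundant of them were nfatc3a, with 326.4 and 471.3 normalised counts in Tg(ins:il1b) and 578.6 and 417.7 in WT, and nfat5a, with 94 and 110.1 in Tg(ins:il1b) and 131.3 and 155.3 in WT. With 1.63% of all genes called by limma and 6.59% by DESeq2, 0 calls in lists this short do not set these genes apart.

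Genes outside the pathway that are known as NF-κB targets in mammals gave a wide range. Of 26 symbols 22 were matched and 19 tested, 0 were called by limma or edgeR and 3 by DESeq2, and 4 had a higher level with an unadjusted limma p under 0.05. Over all genes tested limma called 1.63% and DESeq2 6.59%, and 7.95% were higher with an unadjusted limma p under 0.05. The log2 fold changes ran from -1.47 to 4.64 with a median of 0.76. The most abundant named members were mcl1a, a survival gene of the Bcl-2 family, and gadd45ba, a stress-response gene. For mcl1a the values were 7851.7 and 21678 normalised counts in Tg(ins:il1b), against 13818 and 4288.3 in WT, which overlap (0.76, adjusted p = 0.687 from limma). For gadd45ba they were 6868.4 and 14305 in Tg(ins:il1b), against 6561.4 and 2635.7 in WT (1.25, adjusted p = 0.332 from limma).

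**Figure D5:**
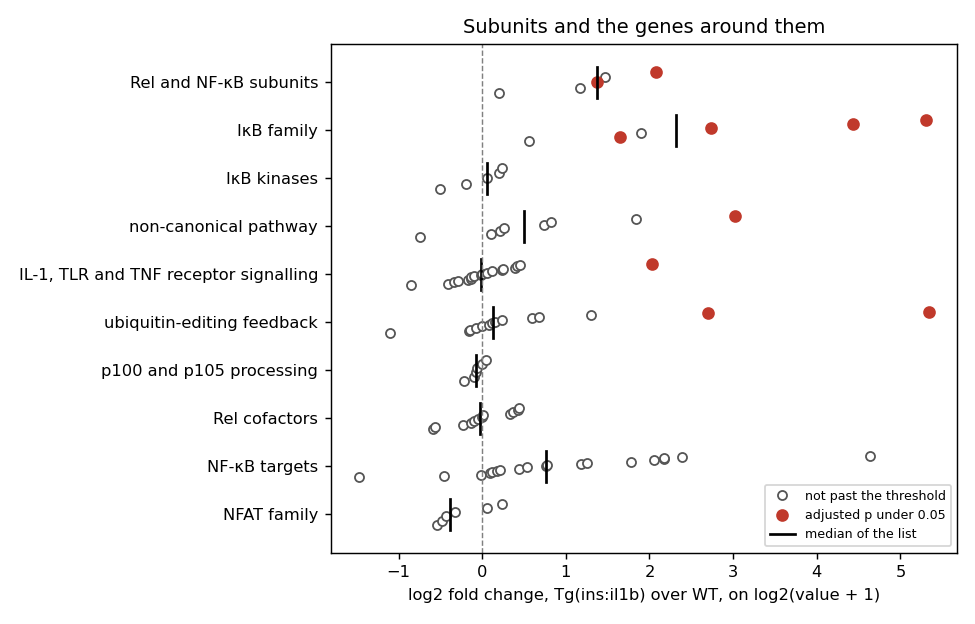
Log2 fold change, Tg(ins:il1b) over WT, of every tested gene in the subunit family and in 9 lists of genes around it. Each circle is a gene (filled red where the limma adjusted p is under 0.05) and each bar the median of its list. Filled circles appear in the subunit family (2), the IκB family (4), the non-canonical pathway (1), receptor signalling (1) and the ubiquitin-editing feedback (2).

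To find genes whose pattern over the 4 libraries was most like that of the members that rose, the distance between centred log2 values was taken over 11723 genes with a mean of at least 100. The nearest to nfkb2 was mllt11 (distance 0.224), with 6732.9 and 8412.2 normalised counts in Tg(ins:il1b), against 2099.6 and 1666.1 in WT (log2 fold change 2.01). It was followed by gpm6ab, a membrane glycoprotein gene (0.251), acsbg2, an acyl-CoA synthetase gene (0.255), and phc2b, a Polycomb gene (0.258). The nearest to relb was cishb (0.0553), a gene of the cytokine-induced SOCS family, with 1290.6 and 1426.6 in Tg(ins:il1b), against 512.5 and 541.2 in WT (1.36). The next were s100u, for an S100 calcium-binding protein (0.0758), si:dkey-23c22.5 (0.101) and ctsh, for the lysosomal protease cathepsin H (0.116). Of these genes, gpm6ab and si:dkey-23c22.5 did not pass the limma threshold. The genes cishb, s100u and ctsh passed it (limma adjusted p = 0.0486, 0.04998 and 0.0398) but did not pass with edgeR (adjusted p = 0.0519, 0.0554 and 0.0539). The likeness describes these 4 libraries only.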

How the data were processed

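The authors sequenced mRNA of FACS-sorted β-cells (paired 75 bp reads, Illumina HiSeq2500) and mapped it with GSNAP to GRCz10, using Ensembl annotation 87, as the methods and the submitters' processing notes state. Which counter, strand setting and normaliser they used is not given in the sources used here. The authors deposited a signal per gene, termed normalised counts, with gene length (another column of the table) beside it. Dividing by what 1 read is worth (1.01 and 1.07 in Tg(ins:il1b), 0.918 and 0.965 in WT) gave whole reads to within 0.1 for 100% of values above 0.

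A gene was tested if 2 or more libraries had at least 10 normalised counts. limma 3.58.1 (R 4.3.3) was fitted to log2(value + 1) of all 4 libraries with a variance trend and no covariate, with Benjamini-Hochberg adjustment at 0.05. This scale understates changes of low genes. As alternatives, edgeR 4.0.16 (quasi-likelihood) and DESeq2 1.42.0 were run on the whole reads. Scripts were first tested on simulated data with known answers. Other alternatives were pseudocounts of 0.5 and 5, no filter and a filter at 50, no variance trend, other scalings, the replicate block, and each library left out (the count tests without each library were added after seeing the data). Tables and figures used Python 3.11.15, pandas 2.3.3, numpy 2.4.6 and matplotlib 3.10.9.

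The members and gene lists were chosen with earlier results of these data known. The rule named the members and il1b, the 4 genes nearest to each called member and, from every list, at most 4 called genes by p, topped up with the 2 most abundant others where under 2 were called. This gave 36 genes, of which 17 were called. The genes pcsk2, kcnj11, slc30a8, gcga, ghrl, ins, abcc8, sst2, hhex, sst1.1, sst1.2, map3k14b, single leukocyte markers, nfkbiab, cd40 and those under other observations were chosen after their values were seen. List symbols without a match are not analysed here, and no sequences were used here.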

Additional observations from a re-analysis of the deposited data

How the results depend on the processing

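Of 110 recomputed values of the 5 members 95 kept direction and side of the threshold, 12 lost the call and 3 reversed. All 12 losses fell on nfkb2 and relb, the only members with a call to lose. The 95 include values of nfkb1, rel and rela that stayed uncalled. The cause of each change was not tested, except that leaving out a library leaves fewer samples and assumes that a lone library varies like the other genotype. Over all genes 302 were called by limma, 236 by edgeR, 1219 by DESeq2 and 13 without the variance trend, and 1 to 1084 when a library was left out (19 to 545 with limma). Without the trend nfkb2 (2.07, limma adjusted p = 0.103) and relb (1.38, limma adjusted p = 0.183) lost the call, and 0 genes were called among the subunits, the IκB family, the non-canonical pathway, receptor signalling and the feedback genes. DESeq2 called 2 of the non-canonical and 3 of the target genes, edgeR called 0 of receptor signalling, and scaling to the library total less il1b and ins called 2 of the non-canonical genes.

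With each library left out, over the 3 tests, nfkb2 ran from 1.96 to 2.198, relb from 1.27 to 1.51 and rela from -0.0612 to 0.476. The uncalled genes chuk (-0.27 to 0.73), tbk1 (-0.0577 to 0.545), birc2 (-0.11 to 0.33), ube2nb (-0.11 to 0.14), rps3 (-0.256 to 0.0128), hdac1 (-0.0444 to 0.0744) and mcl1a (-0.20 to 1.79) also changed sign. Calls ran from 0 to 2 subunits, 0 to 5 IκB genes, 0 to 2 non-canonical, 0 to 1 receptor, 0 to 2 feedback and 0 to 5 target genes. Of 682 values of the other named genes 546 were the same, 103 lost the call, 6 gained it and 27 reversed. Among the ratios, with each library left out, relb over nfkb1 (-0.44 to 0.26) and relb over rel (-0.07 to 0.47) changed sign, nfkb2 over nfkb1 ran from 0.16 to 1.04, and the other 7 stayed above 0.

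The labels number the libraries 1 and 2 in each genotype but do not say what same-numbered libraries share. These hardly deviated together (r = 0.03 across genes). With 2 libraries per genotype this correlation cannot tell whether they were prepared together. With the replicate block limma called 437 genes, nfkb2 (2.07, adjusted p = 0.0151) and relb (1.38, adjusted p = 0.0330) among them, and no member's call changed. Among the members nfkb1 had the fewest reads, 37 to 151 per library, and the part of depth in its spread was not tested.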

Other observations

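Of the inflammatory target genes of NF-κB, some were high in 1 of the Tg(ins:il1b) libraries. They were singled out after their values were seen. The cytokine gene tnfa had 0 and 119.7 normalised counts in Tg(ins:il1b) and was listed at 0 in both WT libraries, and ptgs2a, for a prostaglandin synthase, had 5.1 and 199.8 in Tg(ins:il1b) and was also at 0 in both WT libraries. The chemokine gene cxcl8a had 10.1 and 161.4 in Tg(ins:il1b), against 0 and 1.9 in WT. In each it was replicate 2 of Tg(ins:il1b) that was high, the library with the higher sum of leukocyte markers. Most markers of other endocrine cells were also higher in that library than in replicate 1, such as sst2 (148.6 and 11911) and ghrl (11636 and 97001). The exception was gcgb (76536 and 56798). The part of leukocyte RNA or of RNA from other endocrine cells in the values of tnfa, ptgs2a and cxcl8a was not tested.

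Of the target genes that DESeq2 called, cxcl8a is one, and the others were cflara, for an inhibitor of death-receptor caspase activation, and gadd45bb. The gene cflara had 1009.6 and 1020.5 normalised counts in Tg(ins:il1b), against 120.3 and 416.8 in WT, so the spread lay between the WT libraries (log2 fold change 2.17, adjusted p = 0.143 from limma and 0.0104 from DESeq2). The gene gadd45bb had 2275 and 5108 in Tg(ins:il1b), against 1170.1 and 360.8 in WT (2.39, adjusted p = 0.142 from limma and 0.00188 from DESeq2). Neither passed limma, and for both genes each Tg(ins:il1b) library lay above both WT libraries.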
